A study of Mus musculus with 40 samples.

Results

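The genes of the Myc, Max and Mxd families and of the Myb family are described here over 3 array experiments on mouse embryonic stem (ES) cells. Members were taken by name, with no cutoff on a measured value, but with earlier results of these data known. They are Myc, Mycn, Mycl, Max, Mxd1, Mxd3, Mxd4, Mxi1, Myb and Mybl2, which are 10 of the 14126 named genes found on at least 1 array design. All gene probes of these names were kept, which gave 10 probes for 10 genes on the late arrays, 11 probes for 9 genes on the early arrays and 13 probes for 10 genes in the Nanog experiment. No probe named Mxd4 was found on the early arrays.

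The early and late arrays hold ZHBTc4 ES cells (129/Ola), a single line in which the only active Pou5f1 (Oct4) is a transgene that tetracycline (Tet) represses. The early arrays cover 0, 3, 6, 12 and 24 hr of Tet with 2 arrays each (10 arrays). The late arrays cover 6 times from 0 to 120 hr, 24 hr apart, with 3 arrays each (18 arrays). The Nanog experiment (12 arrays) compares a clone with Nanog on an episomal pPYFloxed vector to MG1.19 cells (both 129Sv), and a clone with Nanog integrated in a pEF6/IRES neo plasmid to ES 129.3 cells (both 129SvEv-Tac). Complete medium with LIF, the same medium lacking LIF, and complete medium to which 1 µM retinoic acid (RA) was added were each read on 1 array per line. Each transgene was thus tested in 1 clone. All cells were passaged on gelatin to remove feeder cells. The labels disagree in part. A description of the series names other parental lines for the clones, and a protocol attached to the late arrays describes a Tcl1 construct in another line, so the strain labels and the sample titles were used. Nothing in the labels says that arrays of one time came from separate cultures, so p-values measure the spread between these arrays, which may be technical.

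MYC, MYCN and MYCL are basic helix-loop-helix leucine zipper transcription factors that bind E-box sequences only as heterodimers with MAX, and they drive genes of ribosome production, metabolism and growth. MXD1, MXD3, MXD4 and MXI1 (also called MXD2) compete for MAX and recruit the SIN3 and histone deacetylase corepressor to the same sequences. MYB and MYBL2 (B-MYB) are DNA-binding activators. MYBL2 works with the MuvB complex on genes of the G2 and M phases, and it is known for its high expression in ES cells. In ES cells MYC is known as a downstream target of LIF and STAT3 signaling.

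Each value below is read by a probe of 60 bases, and the first 30 bases of 6 of them are given because the results turn on which probe reads a gene. The Myc probe found on all 3 designs and a second Myc probe of the early and Nanog designs gave changes of unlike size, as did both Mycl probes. The Max and Mybl2 probes are on all 3 designs, so the same sequence was read in every experiment. Their places in the transcripts were not determined. Letters are in lower case because no part is singled out.
Myc, on all designs: atcctgtccattcaagcagacgagcacaag
Myc, second: gatgcgctggaattaaaatgcatgctcaaa
Mycl, on all designs: gttaactgtttttgtataagaaaaacaaaa
Mycl, second: attaattgcttgattttaaactgttgcctt
Max: tgtacatactgcccaagaattgtcctgcaa
Mybl2: agggcaagagacaacatctgaagacatgac

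Promoters were read from a RefSeq table (GRCm38.p6, 250 bases before to 50 after each start), which held 11 promoters for 9 of 10 members, all but Myc. The E-box CACGTG, the core to which MYC and MAX bind, was searched on both strands and was present in 7.15% of all 32851 promoters of the table. Among the members it was found in the promoters of Max and of Mxd4. E2F-like sites (TTTCCCGC, TTTGGCGC, TTTCGCGC or TTTGCCGC, either strand) were present in 2.26% of promoters, and among the members Mycn held a pair of them. The motif TTTGAA of G2 and M phase promoters (17.9% of promoters, either strand) was found in Mycn, and the octamer ATGCAAAT bound by POU5F1 (1.74%) was found in 0 of the members' promoters. The stretches that hold the E-box and E2F-like matches are printed with the matches in capitals, on the minus strand on which these genes lie. A match describes the sequence and not a site of binding.
Max, chr12:76962229-76962308: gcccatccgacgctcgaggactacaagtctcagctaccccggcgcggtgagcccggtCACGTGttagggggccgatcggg
Mxd4, chr5:34187881-34187960: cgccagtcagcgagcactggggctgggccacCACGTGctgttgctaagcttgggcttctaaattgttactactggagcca
Mycn, chr12:12941837-12942036: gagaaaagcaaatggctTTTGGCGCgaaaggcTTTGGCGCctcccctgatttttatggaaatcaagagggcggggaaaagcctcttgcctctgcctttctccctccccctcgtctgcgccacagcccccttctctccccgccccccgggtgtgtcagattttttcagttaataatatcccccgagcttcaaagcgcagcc

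The Cy3 channel of each array held the sample and the Cy5 channel a pooled mouse reference RNA, with no dye exchange, and all values are log2(Cy3/Cy5). A change was called at an adjusted p below 0.05 (limma, Benjamini and Hochberg over all gene probes of the design) and at least 1.5-fold, and a gene with several probes was counted by its brightest one. Pou5f1 itself fell by 2.18 at 24 hr on the late arrays. Its 2 probes on the early arrays disagreed: at 24 hr the dimmer fell by 2.79 (adjusted p = 0.00125) and the brighter changed by -0.55 (adjusted p = 0.0285). Socs3, a LIF target, fell by 2.62 without LIF, and Cyp26a1, an RA target, was 2.65 higher with RA. Nanog itself was 0.75 higher in the integrated clone than in its parental line (adjusted p = 0.0498). It was lower in the clone labeled episomal (-0.57, adjusted p = 0.38), and where this probe lies relative to the transgene is not known. All member probes of the early and Nanog arrays read above the 95th percentile of the negative-control spots on each array. On the late arrays this held on all 18 arrays for the members other than Mxd1 (14 of 18), Mxd3 (17 of 18) and Mxd4.

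On the late arrays 7 of 10 members were called at 1 or more times against 0 hr, where 24.8% of all genes were. The count grew over time, from 1 member at 24 hr (7.57% of all genes) and 3 at 48 hr (10.3%) to 4 at 72 hr (14.3%) and 6 at 96 hr (17.8%). At 120 hr 7 members were called, 3 higher and 4 lower, where 20.6% of all genes were. Myc, Max and Mxd4 were higher, and Mybl2, Mycn, Mycl and Mxi1 were lower. The number of members called at 1 or more times fell to 5 when replicate 3 of 0 hr was left out. Of 9 members on the early arrays 2 were called at 1 or more times (9.4% of all genes). Bulk RNA cannot tell a smaller number of cells of a type from less RNA per cell. Between 0 and 120 hr of the late arrays, the summed Cy3 signal of 10 ES markers fell from 144055 to 187811 down to 14845 to 19796. These include Pou5f1, the gene that Tet represses. The sum of 10 of 12 trophoblast markers rose from 9369 to 11499 up to 137422 to 189663. Fibroblast markers, which would come from feeder cells, summed to 3094 to 3195 and 2918 to 3292 over 5 of 6 genes. Only 1 to 3 of these 5 read above the negative controls at 0 hr and 3 at 120 hr, so this sum is largely background. At 120 hr 1 of the 5 was called higher, and Acta2 was 1.97 higher at 96 hr. The part of these markers in the members' changes was not tested.

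**Figure D1:**
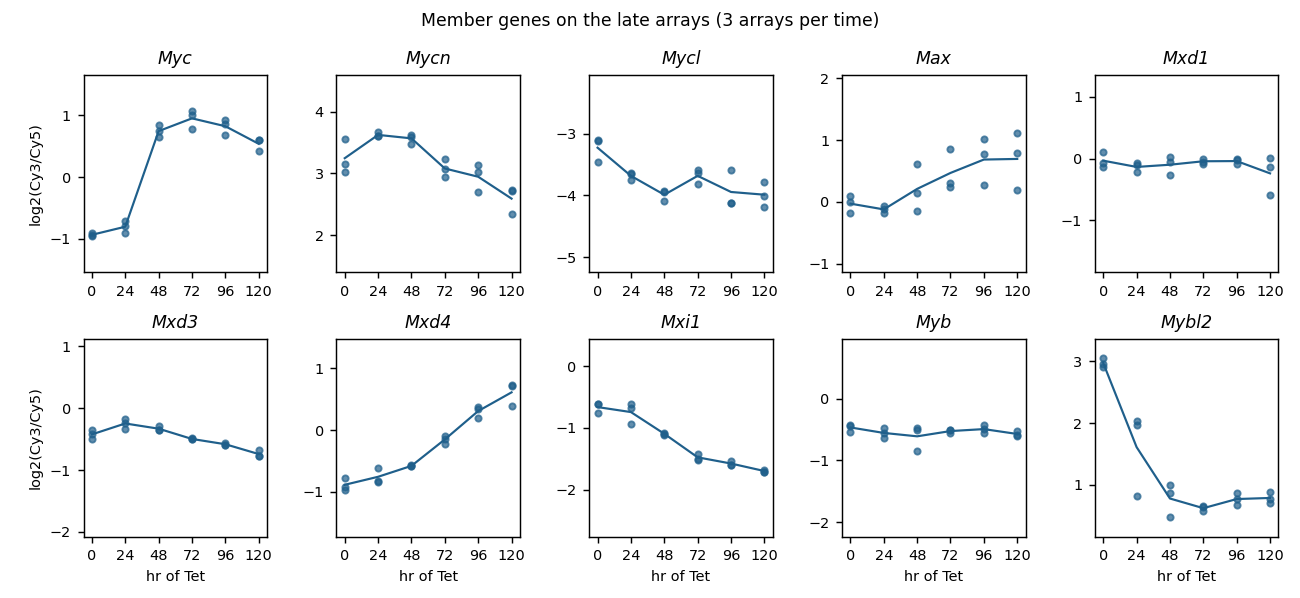
Values of the 10 members on the late arrays, as log2(Cy3/Cy5) against hours of Tet, with a point for each of 3 arrays per time and a line through the means. Myc steps up from -0.80 at 24 hr to 0.75 at 48 hr, Mybl2 falls from 2.97 to 0.78 by 48 hr, and Mxd4 rises while Mxi1 falls from 48 hr on.

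Myc (chr15:61985341-61990361), the founding member of the family, switched from low to high on the late arrays between 24 and 48 hr. Its 3 arrays read -0.94, -0.95 and -0.90 before Tet and -0.91, -0.71 and -0.79 after 24 hr. They read 0.64, 0.75 and 0.84 once 48 hr had passed, and 0.78, 1.00 and 1.07 after 72 hr. At both earlier times the highest array lay below the lowest array of any later time. Against 0 hr, Myc was higher by 1.68 ± 0.08 at 48 hr (log2 change ± SE, n = 3, adjusted p = 1.08e-10, 3.2-fold). By 72 hr the rise was 1.88 ± 0.08 (adjusted p = 1.15e-11, 3.69-fold). The rise was 1.76 after 96 hr. It was 1.47 after 120 hr, where the arrays read 0.43, 0.60 and 0.60. The step from 24 to 48 hr was 1.55 ± 0.08 (adjusted p = 1.74e-09). That step was called for Myc and Mybl2, 2 of 10 members, and for 3.39% of all genes. The later steps were called for 0 members, at 2.75% of all genes from 48 to 72 hr, 1.35% from 72 to 96 hr and 0.574% from 96 to 120 hr. In these steps 6, 1 and 4 members had an unadjusted p under 0.05 in limma, as had 4848, 3678 and 3018 of 20727 genes. The rise of Myc was in the sample channel: at 48 hr Cy3 was 1.81 and Cy5 0.13 higher than at 0 hr.

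Over the first 24 hr of the early arrays Myc moved the other way. The brighter probe read 0.06 and 0.19 at 0 hr, -0.44 and -0.28 at 6 hr, -1.15 and -1.27 at 12 hr, then -1.86 and -1.56 by 24 hr. Both arrays of each of these times lay below both of the time before. The change of -0.48 ± 0.12 at 6 hr was not called (n = 2, adjusted p = 0.0637). Those of -1.33 ± 0.12 at 12 hr (adjusted p = 0.0014) and -1.83 ± 0.12 at 24 hr (adjusted p = 4.1e-05, 3.55-fold) were. The probe shared with the late arrays showed the same order with smaller changes, -1.02 at 12 hr and -1.13 at 24 hr, both called. Myc was the 1 member called at 12 hr (0.597% of all genes) and the only member that passed the F test over all early times (adjusted p = 1.6e-04). At 3 hr 0 of 9 members and 0% of all genes were called by limma. There 2 members, Mybl2 and Mycl, had an unadjusted p under 0.05, as had 2413 of 39003 genes. At 6 hr 0 members were called (2.17% of all genes), with 4 at an unadjusted p under 0.05, as were 7455 of 39003 genes.

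**Figure D2:**
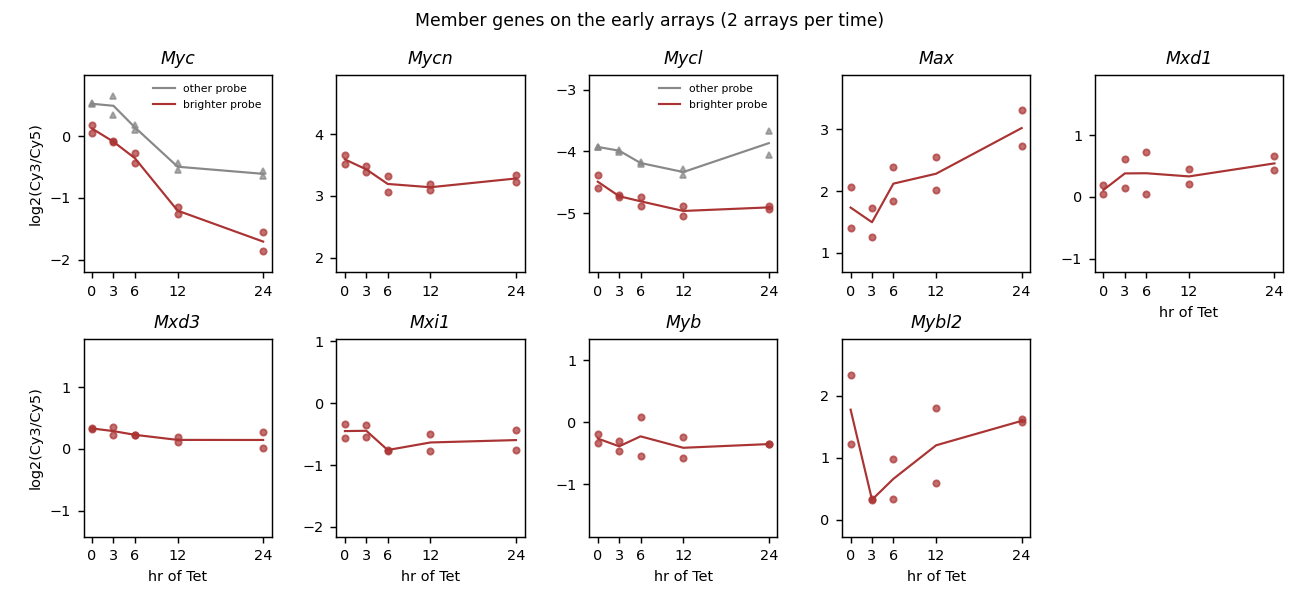
Values of the 9 members measured on the early arrays, as log2(Cy3/Cy5) against hours of Tet, with a point for each of 2 arrays per time and lines through the means, where gray triangles mark a second, dimmer probe. Both Myc probes fall after 6 hr, while the arrays of Mybl2 at 0 hr spread from 1.22 to 2.33.

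The early and late arrays share 24 hr of Tet, which allows the change to be compared on identical probes. For 8 members measured by a shared probe, the change from 0 to 24 hr differed between both experiments for 3 (15.2% of all genes with a shared probe). Myc fell by 1.13 on the early arrays and was 0.13 higher on the late ones, a difference of -1.26 ± 0.14 (SE, adjusted p = 9.35e-07). The experiments started from unlike levels: the shared Myc probe read 0.53 and 0.51 at 0 hr on the early arrays against -0.94, -0.95 and -0.90 on the late ones, and at 24 hr it read -0.65 and -0.57 against -0.91, -0.71 and -0.79. The designs were normalized separately, so these levels are set side by side only. On the late arrays the mean Cy3 signal of the shared Myc probe was 742 at 0 hr and 671 at 24 hr. The negative-control percentile there was 627 to 653 and 514 to 571, so these late levels are dim and a low value is an upper limit. Mycn differed by -0.69 ± 0.20 (adjusted p = 0.0121), and Max by 1.38 ± 0.40 (adjusted p = 0.0117), where the reference channel moved. Mybl2 (1.18, 95% interval 0.24 to 2.12, adjusted p = 0.0517) and Mycl (0.52, interval 0.09 to 0.94, adjusted p = 0.0569) were not called. The difference in Mxd3 (-0.36, adjusted p = 0.00852) was under 1.5-fold, and the intervals for Mxi1 (-0.36 to 0.23) and Myb (-0.38 to 0.38) included 0. The difference in Mycn was lost without replicate 2 of early 0 hr (-0.61), without replicate 2 of early 24 hr (-0.64) or without replicate 1 of late 0 hr (-0.57).

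**Figure D3:**
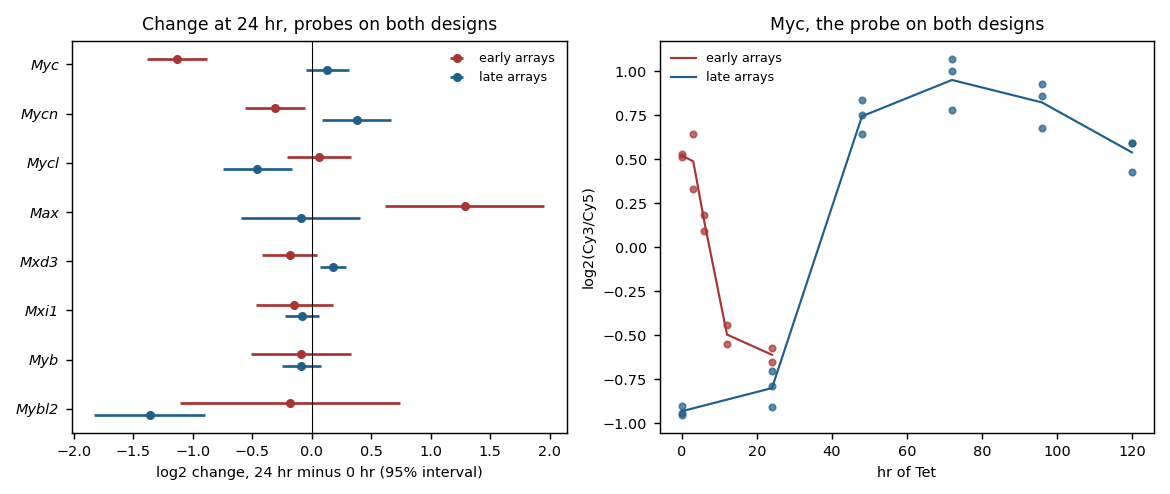
Left, log2 change from 0 to 24 hr of Tet for 8 members on probes that both designs carry, with 95% intervals, for the early (red) and late (blue) arrays, and right, log2(Cy3/Cy5) of the shared Myc probe by time in both experiments. The intervals for Myc do not overlap, at -1.13 (early) and 0.13 (late).

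Mycn (chr12:12936093-12941836), the paralog most used in early embryos, changed little and late. On the late arrays it read 3.02, 3.16 and 3.57 at 0 hr, 3.60, 3.61 and 3.66 at 24 hr, then 2.34, 2.73 and 2.72 by 120 hr. The 120 hr arrays all lay below the 0 hr arrays. It was higher by 0.38 ± 0.14 at 24 hr, under 1.5-fold (adjusted p = 0.0457), and the change of -0.65 ± 0.14 at 120 hr was called (adjusted p = 0.000706). The latter was no longer 1.5-fold without replicate 3 of 0 hr (-0.49), without replicate 1 of 120 hr (-0.53), with the scanner software's processed signals (-0.51) or with the values the authors normalized (-0.46). The Cy5 signal of this probe was lower at 120 hr too, by 0.31, beside a fall by 0.97 in Cy3. Mycn on the early arrays read 3.51 and 3.67 at 0 hr, 3.19 and 3.09 at 12 hr, then 3.33 and 3.23 by 24 hr. Its arrays were lower at each of these later times, and the largest change was -0.45 ± 0.11 at 12 hr (adjusted p = 0.11, not called).

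Mycl (chr4:122995588-123002490), the third MYC paralog, fell on the late arrays. It read -3.10, -3.11 and -3.47 at 0 hr, -3.93, -3.94 and -4.09 at 48 hr, then -3.78, -4.00 and -4.18 by 120 hr, without overlap between 0 hr and these times. Changes of -0.76 ± 0.14 at 48 hr (adjusted p = 0.000294), -0.72 ± 0.14 at 96 hr (adjusted p = 0.00034) and -0.76 ± 0.14 at 120 hr (adjusted p = 0.000168) were called, and those of -0.46 at 24 and 72 hr were under 1.5-fold. With the authors' normalized values the changes were -0.52, -0.34 and -0.36 at 48, 96 and 120 hr, under 1.5-fold, and the 48 hr change was also under 1.5-fold with Cy3 alone (-0.52). Its Cy3 signals were 796 to 905 at 0 hr and 604 to 678 at 120 hr, where the negative-control percentile was 627 to 653 and 506 to 511. Among the early arrays the brighter probe changed by -0.42 ± 0.10 at 24 hr (adjusted p = 0.0235, under 1.5-fold), and the probe that both designs carry by 0.06 (adjusted p = 0.73). Cy3 of the brighter probe changed by 0.03 and its Cy5 by 0.45 at that time.

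Max (chr12:76937269-76962323), the common partner, rose late and by a small amount on the late arrays. It read 0.00, 0.09 and -0.19 at 0 hr, -0.19, -0.07 and -0.11 at 24 hr, 1.02, 0.77 and 0.26 at 96 hr, then 1.11, 0.79 and 0.18 by 120 hr. The arrays of 96 and 120 hr all lay above those of 0 hr, but with a wide spread. Rises of 0.71 ± 0.23 (96 hr, adjusted p = 0.0212) and 0.72 ± 0.23 (120 hr, adjusted p = 0.0181) were called. The call at 96 hr was lost without replicate 3 of 0 hr (0.63), replicate 1 of 96 hr (0.55) or replicate 2 of 96 hr (0.67). The call at 120 hr was lost without replicate 3 of 0 hr (0.64), replicate 1 of 120 hr (0.52) or replicate 2 of 120 hr (0.67), and with Cy3 alone (0.64).

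The ratio of Max on the early arrays rose from 2.06 and 1.41 at 0 hr to 2.73 and 3.31 at 24 hr. This was 1.29 ± 0.30 higher (adjusted p = 0.0179) and made Max, beside Myc, 1 of 2 members called at 24 hr (8.83% of all genes). The sample channel did not rise with it. Cy3 of this probe was 0.27 lower than at 0 hr while Cy5, the reference, fell by 1.55. With Cy3 alone the change was -0.27, with a correction of Cy5 for bleaching -0.16 and with the authors' normalized values -0.33. The direction of Max on the early arrays, and with it the difference from the late arrays at 24 hr (-0.29 with Cy3 alone, -0.03 with the bleaching correction), is therefore not settled. The call of both was also lost without replicate 2 of early 0 hr (0.96 and 1.05) or replicate 2 of early 24 hr (1.00 and 1.09). A lower Cy5 was not particular to this probe. Over the 100 bright probes with the most variable Cy5, mean log2 Cy5 was 10.99 and 11.04 on the early 0 hr arrays. On the early 24 hr arrays it was 9.74 and 9.12. Cy5 enters every early ratio, the share of all genes called there and the 24 hr differences between experiments.

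**Figure D4:**
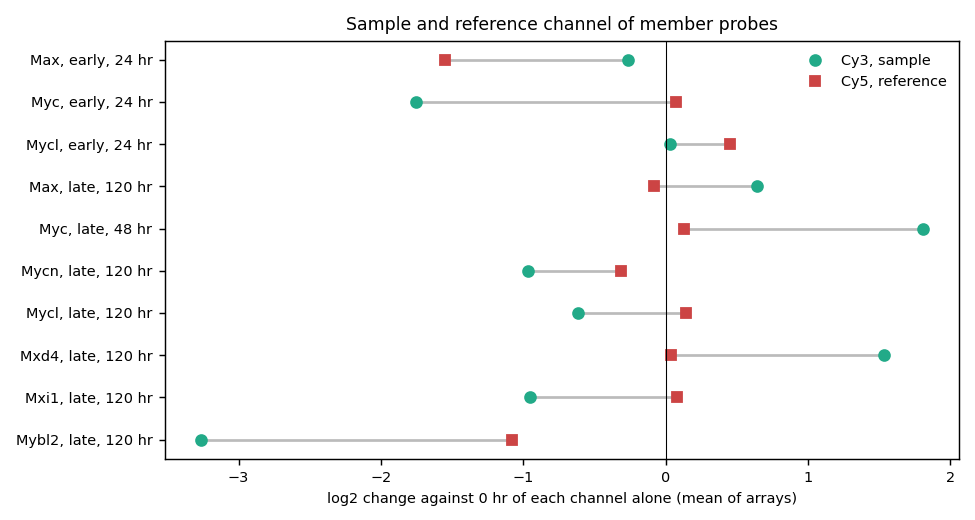
Change against 0 hr of each channel alone, in log2 units, for member probes at the time named, as the mean over arrays, with circles for the sample (Cy3) and squares for the reference (Cy5). For Max on the early arrays Cy5 moves (-1.55) and Cy3 does not rise (-0.27), and for Mybl2 both channels fall (-3.26 and -1.08), while Cy5 of Myc, Mxd4 and Mxi1 moves by 0.13 at most.

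The MXD repressors parted on the late arrays. Mxd4 (chr5:34176580-34187710) read -0.91, -0.77 and -0.97 at 0 hr, -0.59, -0.58 and -0.57 at 48 hr, -0.22, -0.14 and -0.09 at 72 hr, 0.20, 0.35 and 0.38 at 96 hr, then 0.39, 0.72 and 0.73 by 120 hr. From 48 hr on, each time lay above the one before without overlap. Mxd4 was 1.66-fold higher after 72 hr (log2 change 0.73 ± 0.09, adjusted p = 3.2e-06), 2.29-fold after 96 hr (adjusted p = 5.73e-09) and 2.82-fold after 120 hr (adjusted p = 2.34e-10). With the scanner software's processed signals the 72 hr change was 0.55 and under 1.5-fold. These values rest on dim spots. The Cy3 signals of Mxd4 were 592 to 593 at 0 hr, below the negative-control percentile of all 3 arrays (627 to 653), and 605 to 723 at 120 hr, above it (506 to 511). The level at 0 hr is an upper limit, the raw signals differed far less than the corrected ratios, and Mxd4 was above the controls on 1 of 3 arrays at 24 hr, 2 of 3 at 48 hr and all 3 at each later time.

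Mxi1 (chr19:53310128-53373293) fell over the same hours. It read -0.62, -0.77 and -0.61 at 0 hr, -1.08, -1.10 and -1.11 at 48 hr, -1.42, -1.50 and -1.51 at 72 hr, then -1.71, -1.68 and -1.71 by 120 hr. These times did not overlap with each other. The change at 48 hr, -0.43 (adjusted p = 8.48e-05), was under 1.5-fold. Those of -0.81 ± 0.07 at 72 hr (adjusted p = 3.73e-08) and -0.91 ± 0.07 at 96 hr were called, and after 120 hr Mxi1 was 2.05-fold lower (-1.03 ± 0.07, adjusted p = 9.57e-10). With the authors' normalized values the 72 hr change was -0.57, under 1.5-fold. Mxd3 changed by -0.32 ± 0.05 at 120 hr (adjusted p = 6.5e-05), which is under 1.5-fold, and its arrays ranged from -0.17 to -0.78 over all times. Mxd1 ranged from -0.58 to 0.10 and did not pass the F test over all times (adjusted p = 0.557), with signals near the negative controls. Mxd1, Mxd3 and Mxi1 were not called at any early time, and their largest changes were 0.43, -0.19 and -0.31, with adjusted p of 0.177, 0.21 and 0.277.

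Mybl2 (chr2:163054327-163084688) showed the largest change among the members on the late arrays and the earliest call. It read 2.96, 3.05 and 2.90 at 0 hr, 2.04, 1.97 and 0.82 at 24 hr, 1.00, 0.48 and 0.86 at 48 hr, then 0.71, 0.77 and 0.89 by 120 hr. All later arrays lay below those at 0 hr, and replicate 3 at 24 hr already lay among the arrays of 48 hr. By 24 hr Mybl2 was 2.57-fold lower (-1.36 ± 0.22, adjusted p = 0.000139), by 48 hr 4.57-fold (-2.19 ± 0.22, adjusted p = 5.44e-07) and by 72 hr 5.09-fold (-2.35 ± 0.22, adjusted p = 1.51e-07). The step from 24 to 48 hr was -0.83 (adjusted p = 0.0145). Without each array in turn the 24 hr change was -1.57 to -0.97, called each time. Cy5 of this probe changed as well, by -0.90 at 24 hr and -1.08 at 120 hr, beside -2.26 and -3.26 in Cy3, so the size depends on the channel while the direction does not.

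Mybl2 could not be followed over the early hours with the same precision. Its arrays read 2.33 and 1.22 at 0 hr, 0.33 and 0.32 at 3 hr, 0.98 and 0.34 at 6 hr, 1.81 and 0.60 at 12 hr, then 1.62 and 1.57 by 24 hr. The arrays of 3 hr read lowest, level with 1 array of 6 hr, and those of 24 hr lay between both arrays of 0 hr. The change of -1.46 ± 0.41 at 3 hr (adjusted p = 0.734) was not called, nor was any later one, such as -0.18 at 24 hr (95% interval -1.10 to 0.74). Myb (chr10:21124930-21160984), known for its role in blood progenitors, was not called at any time on the early or late arrays. On the late arrays it ranged from -0.84 to -0.42 and did not pass the F test (adjusted p = 0.583), with a 120 hr change of -0.11 (interval -0.27 to 0.06).

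In the Nanog experiment, the response to the medium was read over 4 lines. These are a parental line and a Nanog clone of each strain, so lines of a strain are related and not independent. Without LIF, Mycl was the 1 of 10 members called (1.02% of all genes). It read -4.91, -4.48, -4.44 and -3.41 with LIF (episomal, integrated, MG1.19 and ES 129.3) and -3.10, -2.89, -3.01 and -2.01 without it. It was higher in each line, by 1.40 to 1.81, with a mean of 1.56 ± 0.18 (n = 4 lines, adjusted p = 0.00855), or 2.95-fold. The second Mycl probe was higher by 1.15 (adjusted p = 0.0112). The call was lost without the integrated clone (1.55) or without MG1.19 (1.60), at nearly the same size. Max was higher without LIF in all 4 lines, by 0.35 to 1.49, and its mean of 0.73 was not called (adjusted p = 0.10). Myb was higher in 4 of 4 lines (mean 0.42, adjusted p = 0.257) and Myc in 3 of 4 (mean 0.39, adjusted p = 0.559), neither called. Of the 4 arrays with LIF, that of the clone labeled episomal read lowest for every member but Mybl2, and the mean changes from LIF include it.

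With RA, 5 members were called against at least 1 of the other media, as were 7.95% of all genes. Against LIF, 1 of 10 members was called (5.86% of all genes), which was Mybl2. It read 1.03, 1.83, 0.19 and 0.57 with LIF and 0.24, 0.78, 0.18 and -0.63 with RA in the episomal, integrated, MG1.19 and ES 129.3 lines, a mean change of -0.76 ± 0.17 (adjusted p = 0.0209). It was lower in 3 lines and nearly level (-0.01) in MG1.19. The call was lost without the episomal (-0.75), the integrated (-0.66) or the ES 129.3 line (-0.62), and with parental lines only (-0.60). Mxd4 was higher in all 4 lines (0.57 ± 0.05, adjusted p = 0.000404, 1.49-fold and so not called). Mycn was lower with RA in 3 of 4 lines, by as much as 2.25 in the integrated clone, and its mean of -0.96 had an adjusted p of 0.143.

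Against the medium without LIF, 4 of 10 members were called with RA (5.68% of all genes). Mycl was lower by 1.07 on the log2 scale (-1.07 ± 0.18, adjusted p = 0.00538), Max by 0.90 (-0.90 ± 0.19, adjusted p = 0.0141) and Myb by 0.65 (-0.65 ± 0.16, adjusted p = 0.0266), while Mxd4 was higher by 0.66 ± 0.05 (adjusted p = 0.000268). Mxd4 read -0.77, -0.65, -0.71 and -0.70 without LIF and -0.28, 0.17, -0.07 and 0.01 with RA, without overlap. Its Cy3 signals were 440 to 445 and 486 to 531, over a negative-control percentile of 399 to 433. Mycn was lower in 4 of 4 lines, by 0.83 to 2.23 (mean -1.26, adjusted p = 0.0628), and Myc in 4 of 4, by 0.46 to 1.34 (mean -0.83, adjusted p = 0.0668), and neither was called. The RA medium differed from this one in LIF as well, and both comparisons share the RA arrays. Without MG1.19 the calls of Mycl (-0.96), Max (-0.86) and Myb (-0.54) were lost, without ES 129.3 that of Max (-0.98), and without the integrated clone that of Myb (-0.65). The call of Myb was also lost with Cy3 alone or with parental lines only. With RA, trophoblast, primitive endoderm and fibroblast markers were higher than with LIF for 7 of 11, 4 of 7 and 3 of 5 genes measured, and ES markers were lower for 6 of 10, beside 4.65% of all genes higher and 1.21% lower. The summed Cy3 signal of the trophoblast markers was 43145 to 104812 with RA and 9938 to 53806 with LIF, that of the fibroblast markers was 5503 to 40480 and 3548 to 9849, and the part of these markers in the members' values was not tested.

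**Figure D5:**
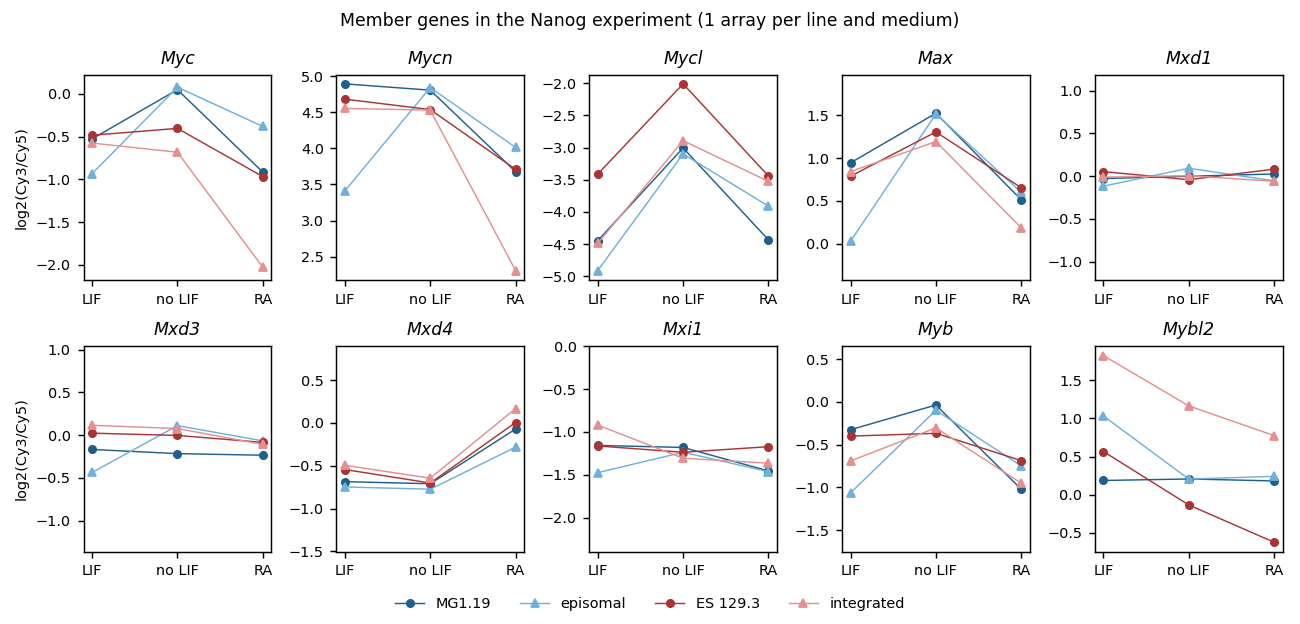
Values of the 10 members in the Nanog experiment, as log2(Cy3/Cy5) by medium, with 1 array per point, circles for parental lines and triangles for Nanog clones, in blue for 129Sv and red for 129SvEv-Tac. Mycl peaks without LIF in each of 4 lines, Mxd4 is highest with RA in each line, and Mybl2 is highest in the integrated clone in each medium.

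No member was called by limma between transgenic and parental cells over 6 pairs of arrays (0.00531% of all genes). At an unadjusted p under 0.05 were 1 member, Mybl2, and 7351 of 37680 genes. Mybl2 was higher in the transgenic array of 5 of 6 pairs (mean 0.81 ± 0.22, adjusted p = 0.118). In the integrated clone it read 1.83, 1.17 and 0.78 with LIF, without LIF and with RA, against 0.57, -0.14 and -0.63 in ES 129.3, a difference of 1.32 ± 0.16 (adjusted p = 0.00596, 2.5-fold). It was the 1 of 10 members called in this comparison (4.53% of all genes, 1.79% higher and 2.74% lower). The 3 pairs of a clone differ by medium and are not independent. The SE and p-values of each clone, and of the difference between clones, measure the spread over media and not between clones. Markers of cell types moved in the comparison of the integrated clone with ES 129.3 too. Of 10 ES markers 4 were higher (median 0.60). Nanog, the gene of the transgene, is among these 4 and in the summed signal below. Lower were 3 of 11 trophoblast markers, 2 of 5 fibroblast markers (median -0.94) and 2 of 6 CDK inhibitors. Over the media the summed Cy3 signal of the ES markers was 95238 to 114759 in the clone and 63686 to 111544 in ES 129.3, that of the trophoblast markers 9938 to 43145 and 41852 to 84841, and that of the fibroblast markers 3548 to 5503 and 7985 to 40480. Their part in the level of Mybl2 was not tested. In the clone labeled episomal it read 1.03, 0.20 and 0.24 against 0.19, 0.20 and 0.18 in MG1.19 (0.30 ± 0.16, adjusted p = 0.525). The difference between both clones was 1.02 ± 0.22 (adjusted p = 0.105). For this difference 0 of 10 members were called by limma (0.823% of all genes), with 2, Mybl2 and Mxd4, at an unadjusted p under 0.05, as were 4751 of 37680 genes. The clones differ in strain, parental line and form of the transgene, which cannot be told apart. The sample titles give unlike passages for both parental lines and none for the clones. A difference in passage can therefore not be told apart from the transgene or the clone. For Myc, Mycn, Mycl and Max the differences between transgenic and parental cells were -0.21, -0.44, -0.35 and -0.23, with intervals that all included 0.

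Partners and targets of these factors were read from lists of other genes, of which the share called at 120 hr of the late arrays is set beside 12.1% of all genes higher and 8.53% lower. Of 21 genes that MYBL2 and FOXM1 are known to drive in the G2 and M phases, 0 were higher and 12 lower at 120 hr (median change -0.62, against 0.00 over all genes). They include Ube2c (-1.25), an enzyme of mitotic exit, Bub1 (-1.21) and Bub1b (-1.03) of the spindle checkpoint, and Top2a (-1.10), a topoisomerase. At 24 hr, when Mybl2 was already lower, 5 of these 21 were higher and 0 lower (median 0.36), beside 3.95% of all genes higher and 3.62% lower. At 48 hr 5 were higher and 0 lower, beside 5.44% and 4.8% of all genes, with Ccna2, the S and G2 phase cyclin, at 1.09. Of 10 measured genes on a list of MYBL2 partners and related genes, 1 was higher and 2 were lower at 120 hr. The higher one was Mybl1 (0.60), a Myb-family gene outside the members and not a partner. The lower ones were Rbl1, a pocket protein, at -0.93 and Mybbp1a at -1.21. Of 6 CDK inhibitors 3 were higher and 0 lower, with Cdkn1c at 3.36 and Cdkn2b at 1.36.

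Of 30 known MYC targets 27 were measured at 120 hr of the late arrays, and 1 was higher and 9 were lower (median -0.50). The higher one was Tfrc, the transferrin receptor (2.72). The lower ones include Dkc1 (-1.91), Npm1 (-1.35) and Nop56 (-1.11) of ribosome production and Shmt2 (-1.79) of one-carbon metabolism. At 48 hr, when Myc first was high, 3 were higher and 2 lower, where 5.44% and 4.8% of all genes were. At 24 hr of the early arrays, when Myc was at its lowest there, 4 of 30 were higher and 1 lower, where 6.91% and 1.92% of all genes were. With RA 0 were higher and 11 of 30 lower than without LIF, beside 4.05% and 1.63% of all genes. Of 8 measured MYC cofactors 0 were higher and 3 lower at 120 hr, among them Ruvbl2 (-0.93) and Wdr5 (-0.87). Of 7 measured genes of the SIN3 corepressor 1 was higher, Rbbp7 (2.64), and 4 were lower, among them Sap30 (-3.54) and Hdac2 (-1.27). Of 7 genes of MYC turnover 1 was higher, the kinase gene Gsk3b (0.65), and 1 was lower. Of 5 listed genes of the MAX and MLX network outside the members, 3 were measured and none was called. Of 3 measured LIF pathway genes Jak1 was higher (1.57) and Socs3 was lower (-1.52), and the change of Socs3 at 72 hr was -2.00. At 24 hr Socs3 changed by -0.80 on the late arrays and by 0.49 on the early ones, the latter under 1.5-fold.

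The genes whose late course was most like that of a member were found among the named genes called at 1 or more late times (3913, or 3914 for Mxd3, which was not itself called), by the root mean square (RMS) difference of their changes from 0 hr over 5 times. Closest to Mybl2 were Tdgf1 (RMS 0.0738), Adgrd1 (0.10) and Atf7ip (0.113). Closest to Myc were Ankrd2 (0.24), Clcn4 (0.269) and S100a11 (0.303), so no gene followed Myc as closely as Tdgf1 followed Mybl2. Closest to Mxd4 were Itprid2 (0.0465), Ap2a2 and Ppp1r13b, and closest to Mxi1 were Alms1 (0.0605), Atp5g2 and Ezh2. Closest to Max were Zbtb22 (0.0454), Tapt1 and Glt8d1. Arl3, Scoc and Bccip were closest to Mycn, with Arl3 at 0.0828, and Zscan10, Il23a and Ndufa1 were closest to Mycl, with Zscan10 at 0.0753. Ccnb1, Set and Arxes2 were closest to Mxd3, with Ccnb1, a G2 and M phase cyclin, at 0.144. The likeness is a description over group means and carries no test.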

How the data were processed

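Scanner files made with Agilent Feature Extraction were deposited for each of 40 arrays, with the intensity of every spot, its median local background, and a processed intensity that the software had background-subtracted and normalized between dyes. The authors also deposited a table of normalized log10 values for each design, which tracked log10 of Cy3. One column of these tables was deposited with 10 cells that hold a code for missing values, so it counts as a score, and these cells were set to missing.

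Mean signals were corrected by normexp (offset 50) over the local background, outlier spots were set to missing, loess was run within each array, controls were dropped, and spots of a probe were averaged as log2(Cy3/Cy5) with limma 3.58.1 in R 4.3.3, with tables read by the data.table package (version 1.17.8). No member spot was missing. The median Cy3 signal of gene probes was 531 to 776 per array over a local background of 365 to 390, and up to 30.2% of gene probes of a late array were dimmer than the 95th percentile of negative-control spots there. The number of arrays, 2 or 3 per time, limits the precision. Tests were limma's lmFit and eBayes, two-sided, with Benjamini and Hochberg adjustment over 42006, 21052 or 41006 gene probes (early, late, Nanog). The transgene was tested within 6 pairs of like strain and medium, media with the line as a block, and the 24 hr difference over 19180 probes identical on both designs. Counts of genes use 1 probe per gene. Scripts were tested on simulated data.

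Alternatives were the processed signals, Cy3 alone after Aquantile scaling, a Cy5 bleaching correction, the authors' values, a filter on dim probes, a replicate block, any probe of a gene, the F test with the methods' error variance, no pair block, parental lines only, and each array, pair or line left out. Members and gene lists were chosen with earlier results of these data known. Named are all members, and of each list at most the 4 genes with the largest changes in each direction on the late arrays, and the 3 genes most like each member past the late F test.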

Additional observations from a re-analysis of the deposited data

Results flagged for a closer look

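Effects of unlike size or sign between groups are given for 4 members, of which 3 passed the test of the difference. The change from 0 to 24 hr of Tet differed between the early and late arrays, by limma's test of the difference itself, for Max (early minus late 1.38), Myc (-1.26) and Mycn (-0.69). For Max the Cy5 reference fell by 1.55 on the early arrays, and the difference was -0.29 with Cy3 alone. For Myc the difference was -1.40 to -0.89 over 6 alternatives, and its sign is that of a fall on the early arrays beside a change of 0.13 on the late ones. The late Myc signals at 0 and 24 hr were dim. Culture, array design and scan differ between both experiments and cannot be told apart. In the Nanog experiment, Mxd4 was higher than in the parental line in all 3 media in the integrated clone and lower in all 3 in the clone labeled episomal, with a mean difference of 0.20 between the clones (adjusted p = 0.342, not called), on signals of 437 to 531 over a negative-control percentile of 399 to 433.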

How the results depend on the processing

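Of 687 values of single members recomputed under another setting, 645 kept their direction and call, 37 kept the direction and lost the call, and 5 reversed. All 5 belong to Max: its early 24 hr change was -0.27 with Cy3 alone, -0.16 with the bleaching correction and -0.33 with the authors' values, and its 24 hr difference between experiments was -0.29 with Cy3 alone and -0.030 with the bleaching correction. The early count of 2 members became 1 with the bleaching correction, 1 with the authors' values and 1 to 2 with each array left out. With the methods' F test it became 0 (1 member at an unadjusted p under 0.05). That test called 0 of all 38574 genes, so this 0 says nothing particular about the members. The late count of 7 became 4 with the authors' values, which hold 9 members, and 5 to 7 with each array left out. With the methods' F test it became 6, where 4367 of 19468 genes were called. The count of 3 members with a 24 hr difference became 5 with Cy3 alone and 1 to 4 with each array left out, where 1 remained without replicate 2 of early 0 hr or of early 24 hr. Without each line in turn, the 1 member called without LIF became 0 to 1 and the 5 called with RA became 2 to 6, with 0 and 2 without MG1.19, 0 and 3 without the integrated clone and 3 with RA without ES 129.3. The transgenic count stayed at 0 with each pair left out and without the pair block.

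With the replicate block the counts were 2 on the early arrays, 7 on the late arrays and 4 for the 24 hr difference. No label says what a number shares, and residuals of like-numbered arrays correlated with r of -0.14 to 0.34 on the early and -0.43 to 0.76 on the late arrays, so the numbers were not taken as pairs. As a hint from the data, 10 of 10 early and 12 of 18 late arrays correlated best with their own number. With 2 early arrays per time, the residuals of both mirror each other, so the 10 early arrays are not separate observations. A scan or slide block could not be fitted, since the labels give each array a barcode of its own and no scan day was among the columns used. A background from the median of the negative controls, chosen after seeing the data, changed 0 of these counts, as normexp fits the background level anew. Dim signals limit Mxd4, Mxd1, Mxd3 and Mycl on the late arrays, and Myc at 0 and 24 hr there. In these a low value is an upper limit.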
